A study of Mus musculus with 2 samples.

Results

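The genes described here are those of de novo lipogenesis, the making of fatty acids from sugar-derived carbon, in mouse liver. They are 10 genes, Srebf1, Acly, Me1, Acaca, Acacb, Fasn, Elovl6, Scd1, Thrsp and Pnpla3, found by gene identifier among the 43346 genes listed in the deposited tables. The list was drawn up by pathway, with no measured value in its rule, but with earlier results of these data known. The study measured poly-A RNA in 2 libraries, biological replicates 2 and 1 of 1 group. That group is liver of adult C57BL/6J mice aged 8 weeks, and the labels describe a pool of male and female littermates. The libraries are stranded, were read in pairs of 76 nucleotides, and hold RNA above 200 nucleotides with external spike-in RNAs. Feeding state, time of day and genotype changes are not given in the labels. Both libraries carry 1 donor identifier, and nothing says whether they came from separate animals, so the spread between them may be technical.

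The deposited estimated reads came to 61688916 in replicate 2 and 60770411 in replicate 1. TPM, the abundance per length scaled to 1 fixed sum per library, is the scale on which genes are compared below. One read on 1 kb of transcript was worth 0.0204 TPM in replicate 2, against 0.0205 TPM in replicate 1. The markers were those of the labelled tissue, and 7 hepatocyte genes, led by Alb with 34762.54 TPM in replicate 2, against 32113.33 TPM in replicate 1, summed to 58459 TPM in replicate 2, against 56903 TPM in replicate 1. The labelled sex was not borne out by the reads, since the 1569 listed Y-linked genes held 1 read in replicate 2 and 0 in replicate 1. Xist, the X inactivation RNA, had 35.87 TPM in replicate 2, against 23.38 TPM in replicate 1. Whether the alignment reference held the Y chromosome is not given here. With 2 libraries of 1 group there is no comparison of conditions, and no likeness of pattern between genes can be measured, so no gene is named for it.

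In lipogenesis, citrate exported from mitochondria is split into acetyl-CoA, which is carboxylated to malonyl-CoA and built by fatty acid synthase into palmitate, using NADPH. Palmitate is then lengthened and desaturated before it is esterified into triglyceride. In liver the pathway is switched on after a carbohydrate meal by insulin acting through SREBP-1c and by the sugar-sensing factor ChREBP, and the oxysterol receptor LXR drives transcription of SREBP-1c.

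Of the 10 genes, 9 have a start site among the RefSeq promoter windows of GRCm38.p6, in 12 windows. Shown are 4 of these windows, a selection from Srebf1, Fasn and Pnpla3. Each window is the 250 bases before an annotated start, read 5′ to 3′ on the gene's strand. Capitals mark 4 motifs found on either strand: TCACCC, a core of sterol regulatory elements; GGTTACT, a part of the LXR element known from the mouse Srebf1 promoter; CCAAT, the NF-Y motif; and CACGTG, an E-box bound by USF factors. These motifs, and another 2 that were searched but not marked, were chosen after the sequences had been seen. The first window lies upstream of the start used for SREBP-1c, the second upstream of the start used for SREBP-1a.
Srebf1, downstream start (chr11:60210472-60210721, minus strand): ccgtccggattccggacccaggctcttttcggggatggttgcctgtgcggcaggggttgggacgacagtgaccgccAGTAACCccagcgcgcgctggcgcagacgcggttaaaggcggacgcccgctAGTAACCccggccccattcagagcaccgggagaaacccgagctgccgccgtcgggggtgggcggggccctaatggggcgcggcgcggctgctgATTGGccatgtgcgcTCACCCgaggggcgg
Srebf1, upstream start (chr11:60220628-60220877, minus strand): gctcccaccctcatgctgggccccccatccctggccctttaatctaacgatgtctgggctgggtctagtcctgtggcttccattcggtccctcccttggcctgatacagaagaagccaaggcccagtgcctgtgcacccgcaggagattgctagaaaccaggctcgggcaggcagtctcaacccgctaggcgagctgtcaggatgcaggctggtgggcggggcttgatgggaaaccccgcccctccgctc
Fasn (chr11:120824548-120824797, minus strand): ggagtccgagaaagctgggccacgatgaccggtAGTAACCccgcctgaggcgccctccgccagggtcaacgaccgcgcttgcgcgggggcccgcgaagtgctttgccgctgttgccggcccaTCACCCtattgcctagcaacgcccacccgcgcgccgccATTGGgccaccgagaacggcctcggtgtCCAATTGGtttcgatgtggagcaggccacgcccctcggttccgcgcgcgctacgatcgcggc
Pnpla3 (chr15:84167566-84167815, plus strand): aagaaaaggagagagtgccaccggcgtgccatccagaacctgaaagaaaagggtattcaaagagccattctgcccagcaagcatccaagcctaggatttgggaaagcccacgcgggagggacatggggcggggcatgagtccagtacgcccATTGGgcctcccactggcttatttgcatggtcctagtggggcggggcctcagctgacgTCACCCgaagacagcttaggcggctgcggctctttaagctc

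The downstream Srebf1 window holds GGTTACT 2 times, read as AGTAACC, beginning 174 and 123 bases before the start, and TCACCC 15 bases before it. The upstream Srebf1 window holds none of the 4 marked motifs. The Fasn window holds GGTTACT at 217 bases, TCACCC at 128 bases and 3 CCAAT matches at 90, 62 and 59 bases, 2 of which overlap. The Pnpla3 window holds TCACCC at 41 bases and CCAAT at 99 bases before the start. A Me1 window that is not shown also holds TCACCC, at 102 bases. Over 32817 windows of the same length, GGTTACT occurs in 1.89%, TCACCC in 13.8%, CCAAT in 33.8% and CACGTG in 6.02%. Among the 12 windows of the lipogenic genes the counts are 2 for GGTTACT, 4 for TCACCC, 7 for CCAAT and 0 for CACGTG. The unmarked motifs were TCACNCCAC, a longer sterol element, in 0 of the 12 windows and 1.05% of all, and GGGCGG, the GC box bound by SP1, in 5 of the 12 and 32.7% of all. These matches describe letters in a window and say nothing of whether a factor is bound there.

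The levels of the 10 genes ran from Scd1, the highest, to Pnpla3, the lowest, which ranked 68th and 8312th among genes in replicate 2 and 124th and 10110th in replicate 1. Together they held 0.368% of all TPM in replicate 2 and 0.247% in replicate 1, a mean of 0.307 ± 0.0852% (SD, n = 2). Scd1 alone supplied 51.8% of that sum in replicate 2 and 46.4% in replicate 1. By mean TPM the order was Scd1, Fasn, Srebf1, Thrsp, Acly, Me1, Acacb, Elovl6, Acaca and Pnpla3. Neighbours in this order did not overlap between libraries except Elovl6 and Acaca, which changed places: Elovl6 was above Acaca in replicate 2 and below it in replicate 1. In bulk liver, fewer cells that express a gene and less RNA per cell cannot be told apart.

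The libraries differed in level for most of these genes, and replicate 2 was the higher one. TPM was higher in replicate 2 for 10 of 10 genes, but the share of all genes with a higher TPM there was not computed. The difference was then tested on estimated reads scaled by TMM, with a two-sided exact conditional binomial test adjusted by Benjamini-Hochberg over 14533 genes, which asks only whether these 2 libraries differ beyond counting error. By that test 8 of the 10 genes were higher in replicate 2, 1 (Srebf1) was lower and 1 (Acly) was not called. Of all genes tested, 57.0% were called in either direction, 27.7% as higher and 29.4% as lower, so a call by itself is common at this depth. The median log2 ratio, replicate 2 over replicate 1, was 0.46 over the 10 genes and 0.00 over all genes tested. Of the 9 lipogenic genes at a mean TPM of 10 or more, 1 (Scd1) was at least 1.5-fold higher in replicate 2, beside 3.83% of the 5481 genes at that level. That count depends on the scaling: it was 4 of 9 with total reads, beside 6.39% of genes, and 5 of 9 with spike-ins, beside 7.01%.

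Scaling shifts every ratio by the same amount. The median of all genes stood at 0.13 on the log2 scale when reads were scaled by library total and at 0.15 when scaled by spike-ins. The share of calls that were higher in replicate 2 was then 69.4% and 73.6%, beside 48.5% with TMM. With either scaling 10 of the 10 lipogenic genes were called higher. Beside them, 5876 of the 14533 genes tested were called higher with total reads and 6348 with spike-ins. Under all 4 scalings tried, DESeq2 size factors included, 8 of the lipogenic genes were called higher. The share of all genes for which that held was not computed.

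**Figure D1:**
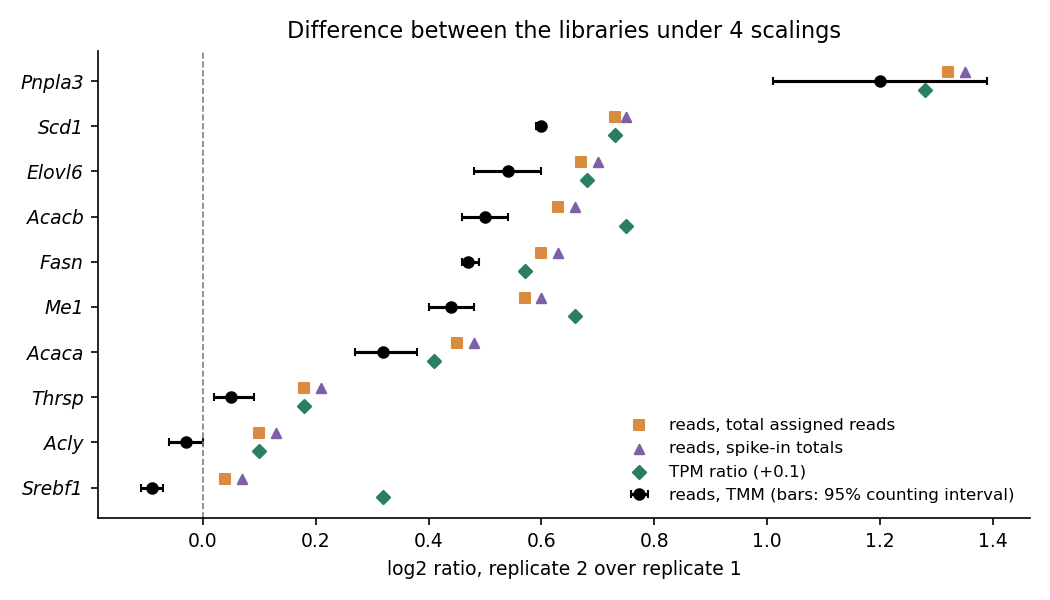
Log2 ratio of replicate 2 over replicate 1 for each gene (rows), from estimated reads scaled by TMM (black, with 95% counting intervals), by total reads and by spike-ins, and from deposited TPM with 0.1 added. Pnpla3 lies highest at 1.2 and Srebf1 lowest at -0.09 with TMM, and Srebf1 and Acly fall on the other side of 0 under the other 3 measures.

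Srebf1 encodes SREBP-1, the membrane-bound transcription factor that switches on the enzymes of the pathway once it is cut free and enters the nucleus. The gene (ENSMUSG00000020538.11) lies on the minus strand at chr11:60199089-60222581 of mm10. It had 499.28 TPM in replicate 2, against 400.19 TPM in replicate 1, a mean of 449.7 ± 70.1 TPM (SD, n = 2), which placed it 273rd and 335th among genes in those libraries. TPM was thus higher in replicate 2. The reads, 62773 in replicate 2 and 60106 in replicate 1, gave a log2 ratio of -0.09 with TMM (95% counting interval -0.11 to -0.07, adjusted p = 2.79e-26 by the exact test). The read ratio was 0.04 with total reads and 0.07 with spike-ins, so the direction depends on the scaling. Srebf2, which encodes the related factor of cholesterol synthesis, stood lower. The deposited TPM of Srebf1 was 12.4 times that of Srebf2 in replicate 2 and 9.52 times in replicate 1. Those ratios are raised by short noncoding models of Srebf1, described next, and differ between the libraries partly for that reason. The coding models of Srebf1 summed to 318 TPM in replicate 2, against 317 TPM in replicate 1. Srebf2 had 40.41 TPM (9550 reads) in replicate 2, against 42.03 TPM (9837 reads) in replicate 1.

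The coding and noncoding models of Srebf1 differed between the libraries by different amounts. The gene has 12 annotated models, of which 3 are long and coding and 9 are noncoding. The 3 coding models summed to 318 TPM in replicate 2, against 317 TPM in replicate 1. The 9 noncoding models summed to 181 TPM in replicate 2, against 83.4 TPM in replicate 1. By TPM the coding level was thus nearly equal in the libraries and the noncoding level was not. From reads scaled by TMM, the log2 ratio was -0.14 for the coding models and 1.01 for the noncoding ones. Because the noncoding models are short, few reads carry a large TPM: they held 36.2% of the gene's TPM but 6.61% of its reads in replicate 2, and 20.9% of TPM but 3.08% of reads in replicate 1. The mean effective length of the gene was 2559.69 bases in replicate 2 and 3080.38 bases in replicate 1.

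Among the single Srebf1 models, Srebf1-203 led with 27.81% of the gene's TPM in replicate 2 and 31.79% in replicate 1. It begins at position 60207188, inside the part of the gene that both protein forms share, and is annotated without its 5′ end, so it cannot tell SREBP-1a from SREBP-1c. Srebf1-201, which begins at 60220604 at the upstream start of SREBP-1a, had 20.61% in replicate 2 and 30.14% in replicate 1. Srebf1-207, which begins at 60210465 at the downstream start of SREBP-1c and is annotated without its 3′ end, had 15.37% in replicate 2 and 17.22% in replicate 1. Liver is known as a tissue in which the 1c form prevails. The estimated TPM of Srebf1-207 was 0.746 times that of Srebf1-201 in replicate 2 and 0.571 times in replicate 1. This split is uncertain, because Srebf1-201 is the only model of the 3 that is complete at both ends, and reads from the shared exons can be assigned to any of them.

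The short Srebf1 models were led by Srebf1-206, of 540 bases, with 13.95% of TPM in replicate 2 and 6.83% in replicate 1. Srebf1-202 had 6.94% in replicate 2 and 4.18% in replicate 1, and Srebf1-211 had 5.77% in replicate 2 and 3.63% in replicate 1. Srebf1-205 had 4.50% in replicate 2 and 2.35% in replicate 1. In these 4 models the share was higher in replicate 2. The remaining models above 1% in either library were Srebf1-212 (1.5% in replicate 2, 1.16% in replicate 1), Srebf1-210 (1.64%, 0.90%), Srebf1-209 (1.10%, 0.51%) and Srebf1-204 (0.80%, 1.29%), the last lower in replicate 2.

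Acly encodes ATP citrate lyase, which splits citrate in the cytosol and supplies acetyl-CoA. By deposited TPM it differed least of the 10 between the libraries, with 106.82 TPM in replicate 2, against 99.42 TPM in replicate 1 (mean 103 ± 5.23 TPM, SD, n = 2). Its 20270 reads in replicate 2 and 18651 in replicate 1 gave a log2 ratio of -0.03 with TMM (95% counting interval -0.06 to -0.00), which was not called by the exact test (adjusted p = 5.34e-02). With total reads the ratio was 0.10 and with spike-ins 0.13, and on those scalings Srebf1, at 0.04 and 0.07, differed less. Acly-201 held 72.29% of its TPM in replicate 2 and 74.08% in replicate 1, and the other long coding model, Acly-203, held 18.25% in replicate 2 and 14.34% in replicate 1.

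Me1 encodes the cytosolic malic enzyme, which makes NADPH for fatty acid synthesis. It had 87.46 TPM in replicate 2, against 55.50 TPM in replicate 1. Reads were 11199 in replicate 2 and 7433 in replicate 1, a log2 ratio of 0.44 (95% counting interval 0.40 to 0.48, adjusted p = 3.40e-92 by the exact test). Its leading model Me1-201 had 77.48% of TPM in replicate 2 and 84.21% in replicate 1, and the noncoding Me1-204 had the rest in both. Its paralogs stood far lower. Me2 had 1.06 TPM (119 reads) in replicate 2, against 0.87 TPM (96 reads) in replicate 1. Me3 was near absent, at 0.05 TPM in replicate 2, against 0.17 TPM in replicate 1.

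Acaca and Acacb encode the acetyl-CoA carboxylases that make malonyl-CoA. ACC1, from Acaca, is cytosolic and feeds synthesis, while ACC2, from Acacb, sits at mitochondria, where malonyl-CoA restrains fatty acid import. Acaca had 17.98 TPM in replicate 2, against 13.53 TPM in replicate 1. Acacb had 39.39 TPM in replicate 2, against 23.39 TPM in replicate 1, so Acacb was 2.19 times Acaca in replicate 2 and 1.73 times in replicate 1 by TPM. Both were called higher in replicate 2 by the exact test. For Acaca, 6303 reads in replicate 2 and 4539 in replicate 1 gave a log2 ratio of 0.32 (95% counting interval 0.27 to 0.38, adjusted p = 1.36e-29 by the exact test). For Acacb, 12655 reads in replicate 2 and 8043 in replicate 1 gave a log2 ratio of 0.50 (95% counting interval 0.46 to 0.54, adjusted p = 1.28e-132 by the exact test).

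The leading Acacb model was not a coding one. Acacb-204, a retained-intron model of 6680 bases, held 52.82% of the gene's TPM in replicate 2 and 53.89% in replicate 1. The coding Acacb-201 held 36.39% in replicate 2 and 40.62% in replicate 1. This split is uncertain, because Acacb-204 lies almost wholly within the span of Acacb-201, and reads from shared sequence can be assigned to either. The coding models of Acacb summed to 14.7 TPM in replicate 2, against 10.1 TPM in replicate 1, below the 17.8 TPM in replicate 2, against 13.5 TPM in replicate 1 of the coding models of Acaca. The order of the 2 carboxylases therefore turns when only the reads and TPM assigned to coding models are counted. It does not turn when all reads of each gene are divided by the length of its longest coding model, an alternative chosen after seeing the data, on which Acacb was 2.18 times Acaca in replicate 2 and 1.92 times in replicate 1. Acaca-201 held 77.52% of its gene's TPM in replicate 2 and 73.76% in replicate 1.

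Fasn encodes fatty acid synthase, the multi-domain enzyme that builds palmitate. It had 762.58 TPM in replicate 2, against 513.21 TPM in replicate 1 (mean 638 ± 176 TPM, SD, n = 2). Reads were 87353 in replicate 2 and 56583 in replicate 1, and the log2 ratio was 0.47 (95% counting interval 0.46 to 0.49). It was called higher in replicate 2 by the exact test, with a p too small to be represented. Most of its TPM came from 2 short retained-intron models. Fasn-202, of 762 bases, held 47.91% of TPM in replicate 2 and 46.82% in replicate 1, and Fasn-203, of 971 bases, held 33.06% in replicate 2 and 34.88% in replicate 1. The full-length coding Fasn-201, of 9587 bases, held 19.03% of TPM in replicate 2 and 18.30% in replicate 1, yet 67055 of the 87353 reads in replicate 2 and 43030 of the 56583 reads in replicate 1.

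The place of Fasn among the 10 genes depends on which length its reads are divided by. Dividing each gene's reads by the effective length of its longest coding model gave Fasn 189 TPM in replicate 2, against 123 TPM in replicate 1. The deposited gene TPM was 4.03 times that value in replicate 2 and 4.16 times in replicate 1. On that scale Fasn stood behind Scd1, Srebf1 and Thrsp. Srebf1 had 310.1 TPM in replicate 2, against 299.9 TPM in replicate 1 on that scale. The TPM of Fasn was 42.4 times that of Acaca in replicate 2 and 37.9 times in replicate 1 as deposited, and 13.8 times in replicate 2 and 12.3 times in replicate 1 on the coding length. Scd1, Elovl6, Thrsp and Pnpla3 have 1 annotated model each and kept their values.

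**Figure D2:**
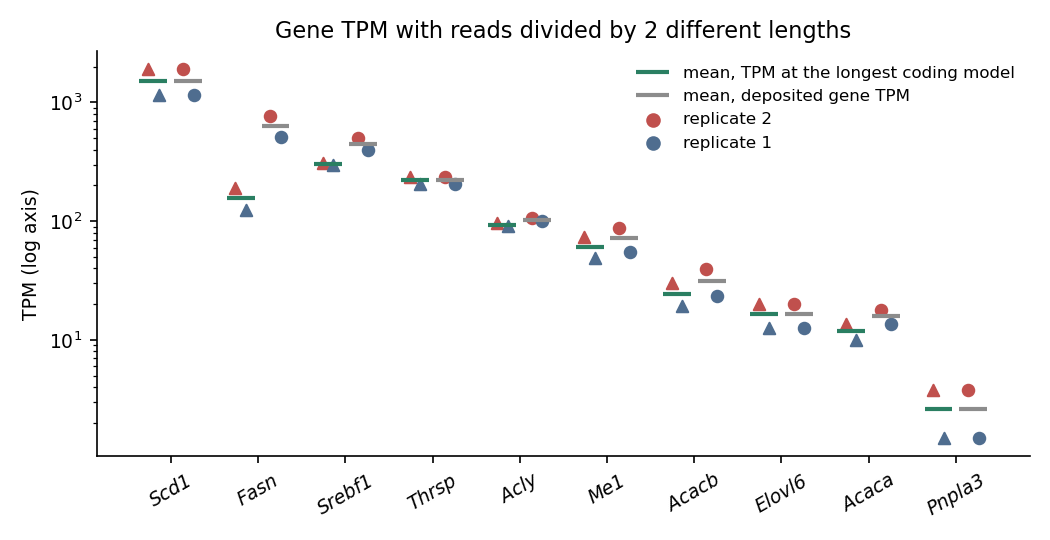
TPM (log axis) of each gene with reads divided by the effective length of its longest coding model (triangles, left) and as deposited (circles, right), in replicate 2 (red) and replicate 1 (blue), with bars at the mean of both. Fasn differs most between the 2 lengths, with a mean of 156 TPM on the coding length and 638 TPM as deposited.

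Noncoding models took a larger share of reads in replicate 2 in 5 of the 6 lipogenic genes that have such models, Fasn being the exception with 23.2% in replicate 2 and 24.0% in replicate 1. The share for Acacb was 53.0% in replicate 2 and 49.7% in replicate 1, and for Me1 7.58% in replicate 2 and 4.98% in replicate 1. The same held across the libraries: of 3162 protein-coding genes at a mean TPM of 10 or more with reads on such models, 74.7% had a larger noncoding share in replicate 2. The median noncoding share of reads was 6.41% in replicate 2 and 4.53% in replicate 1. The part of this library difference in the TPM of Srebf1 was not tested. Counting reads on coding models only, the log2 ratio with TMM was 0.49 for Fasn, 0.41 for Acacb, 0.40 for Me1, 0.32 for Acaca, -0.04 for Acly and -0.14 for Srebf1.

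**Figure D3:**
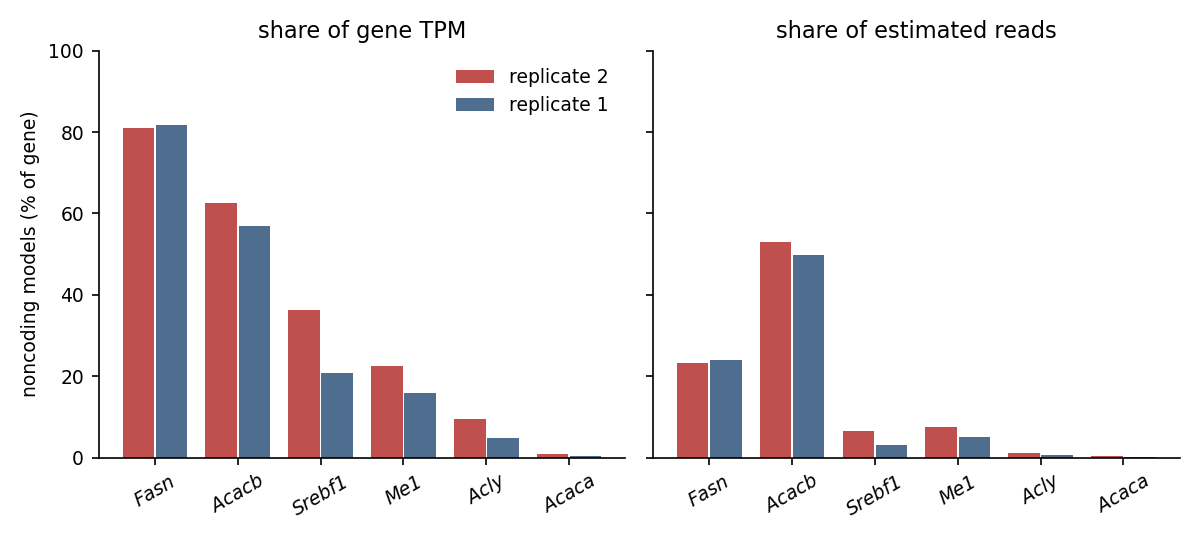
Share of each gene held by its noncoding transcript models, as percent of gene TPM (left panel) and of estimated reads (right panel), in replicate 2 (red) and replicate 1 (blue). The share of TPM exceeds the share of reads in each of the 6 genes, most of all for Fasn, with 81.0% of TPM and 23.2% of reads in replicate 2.

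Elovl6 encodes the elongase that lengthens palmitate to stearate. It had 20.23 TPM in replicate 2, against 12.62 TPM in replicate 1. Reads were 5736 in replicate 2 and 3546 in replicate 1, a log2 ratio of 0.54 (95% counting interval 0.48 to 0.60, adjusted p = 1.92e-69 by the exact test). Other elongases were more abundant: Elovl5 had 276.88 TPM in replicate 2, against 196.22 TPM in replicate 1, and Elovl2 had 161.45 TPM in replicate 2, against 136.05 TPM in replicate 1. Both act on polyunsaturated fatty acids. Elovl1 had 116.35 TPM in replicate 2, against 110.67 TPM in replicate 1, Elovl3 had 2.40 TPM in replicate 2, against 3.50 TPM in replicate 1, and Elovl7 was at or below 0.05 TPM.

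Scd1 encodes the stearoyl-CoA desaturase, which puts the double bond into stearate to make oleate. It was the most abundant of the 10, with 1905.47 TPM in replicate 2, against 1146.01 TPM in replicate 1 (mean 1525.7 ± 537 TPM, SD, n = 2), ranking 68th and 124th among genes. It held 435949 reads in replicate 2 and 259698 in replicate 1, a log2 ratio of 0.60 (95% counting interval 0.59 to 0.60), and was 1.51-fold higher in replicate 2. The p of the exact test was too small to be represented. Its paralogs took few reads: Scd2 had 1.5 TPM in replicate 2, against 1.43 TPM in replicate 1, while Scd3 and Scd4 were at or below 0.06 TPM. Scd1 was thus 1270.3 times Scd2 in replicate 2 and 801 times in replicate 1. Over the 10 genes the posterior standard deviation of the read estimate was at most 1.30 reads, which is small beside their counts.

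Thrsp encodes Spot 14, a small thyroid hormone-responsive protein that promotes lipogenesis. It had 234.31 TPM in replicate 2, against 206.52 TPM in replicate 1. Reads were 12647 in replicate 2 and 10962 in replicate 1, a log2 ratio of 0.05 (95% counting interval 0.02 to 0.09, adjusted p = 8.22e-03 by the exact test). This was the smallest difference among the 8 genes called higher. Its relative Mid1ip1 had 59.76 TPM in replicate 2, against 55.05 TPM in replicate 1, so Thrsp was 3.92 times Mid1ip1 in replicate 2 and 3.75 times in replicate 1.

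Pnpla3 encodes a lipid-droplet protein of hepatocytes that is a known target of SREBP-1c in mouse. It was the lowest of the 10 and differed most, with 3.76 TPM in replicate 2, against 1.49 TPM in replicate 1. Its 825 reads in replicate 2 and 324 in replicate 1 gave a log2 ratio of 1.2 (95% counting interval 1.01 to 1.39, adjusted p = 6.48e-39 by the exact test), a fold of 2.29. Its rank among genes was 8312 in replicate 2 and 10110 in replicate 1. The paralog Pnpla2, the main triglyceride lipase, had 73.09 TPM in replicate 2, against 70.40 TPM in replicate 1. Pnpla1 was listed at 0 in both libraries, and Pnpla5 had 0.07 TPM in replicate 2 and 0 in replicate 1.

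The rest of the pathway gives the setting, and its lists were drawn up with earlier results of these data known. The counts stand beside 27.7% of all genes tested called higher in replicate 2 with TMM, and 29.4% called lower. The first list held 14 genes of precursor supply and other companions of the core enzymes. Of these, 5 were higher in replicate 2, 7 lower and 2 not called by the exact test with TMM. Their median log2 ratio was -0.03 with TMM, and 8 were higher with total reads and 8 with spike-ins. Pklr, the liver pyruvate kinase and a classic ChREBP target, had 439.3 TPM in replicate 2, against 322.65 TPM in replicate 1 (log2 ratio 0.55). Fabp1, the liver fatty acid-binding protein, had 1679.73 TPM in replicate 2, against 1574.59 TPM in replicate 1 (log2 ratio -0.01). Cd36, a fatty acid uptake receptor, had 2.29 TPM in replicate 2, against 10.02 TPM in replicate 1 (log2 ratio -2.25). Chosen after their values were seen, Acss2, which activates acetate, had a log2 ratio of 0.63 and Aacs, acetoacetyl-CoA synthetase, had 1.31. A list of 9 genes of the pentose phosphate pathway and NADPH supply includes several that do not make NADPH themselves. Of these 9, 4 were higher, 3 lower and 2 not called. G6pdx, the first enzyme of the pentose phosphate pathway, had 3.26 TPM in replicate 2, against 1.65 TPM in replicate 1 (log2 ratio 0.94). H6pd had 176.45 TPM in replicate 2, against 153.74 TPM in replicate 1, and Idh1, a cytosolic NADPH source, had 117.66 TPM in replicate 2, against 129.89 TPM in replicate 1.

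Upstream of the enzymes, 2 of 23 regulators were higher in replicate 2, 15 lower and 6 not called with TMM, and 7 and 9 were higher with total reads and spike-ins. Mlxipl, which encodes ChREBP, was one of the 2, with 527.25 TPM in replicate 2, against 369.26 TPM in replicate 1 (log2 ratio 0.25). Insig1 and Insig2 encode the proteins that hold SREBP in the endoplasmic reticulum. Insig1 had 388.25 TPM in replicate 2, against 424.33 TPM in replicate 1 (log2 ratio -0.26), and Insig2 had 142.85 TPM in replicate 2, against 206.14 TPM in replicate 1 (log2 ratio -0.63). Of the 23 regulators, 5 kept their call under all 4 scalings. Of 8 known LXR targets outside the lipogenic set, 7 were higher with TMM, 0 lower and 1 not called. The 7 were called higher under all 4 scalings, and the share of all genes for which that held was not computed. Of the 14533 genes tested, 4019 were called higher with TMM, 5876 with total reads and 6348 with spike-ins. Cyp7a1, the rate-limiting enzyme of bile acid synthesis, had 17.34 TPM in replicate 2, against 7.53 TPM in replicate 1 (log2 ratio 1.24). Abcg5, a sterol exporter, had 101.92 TPM in replicate 2, against 83.87 TPM in replicate 1 (log2 ratio 0.11). Lpcat3, the phospholipid-remodelling enzyme, was the uncalled gene at 162.25 TPM in replicate 2, against 144.8 TPM in replicate 1.

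The SREBP-2 targets of cholesterol synthesis were split with TMM, with 8 of 19 higher in replicate 2, 8 lower and 3 not called (median log2 ratio 0.02). With total reads 11 were higher, and with spike-ins 11. Sc5d, a sterol desaturase, had 764.51 TPM in replicate 2, against 675.77 TPM in replicate 1 (log2 ratio 0.04). Of 12 glycerolipid genes, 5 were higher and 7 lower (median -0.26). Dgat2, which completes triglyceride from newly made fatty acids, had 520.13 TPM in replicate 2, against 586.98 TPM in replicate 1 (log2 ratio -0.31). Agpat2 had 362.3 TPM in replicate 2, against 428.1 TPM in replicate 1, and Gpat3 had 1.72 TPM in replicate 2, against 5.98 TPM in replicate 1 (log2 ratio -2.00).

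Genes of fasting and of PPARA, the receptor that switches on fatty acid oxidation, lay on the other side of 0. Of 16, 0 were higher in replicate 2, 14 lower and 2 not called by the exact test with TMM (median log2 ratio -0.42), while 2 and 3 were higher with total reads and spike-ins. Igfbp1, which insulin represses, had 14.75 TPM in replicate 2, against 42.63 TPM in replicate 1 (log2 ratio -1.66). Pck1, the gluconeogenic enzyme induced by fasting and chosen here after its values were seen, had 206.83 TPM in replicate 2, against 491.1 TPM in replicate 1 (log2 ratio -1.39). Of 14 clock genes, 4 were higher, 8 lower and 2 not called (median -0.22). Nr1d1, the REV-ERB alpha repressor, had 91.17 TPM in replicate 2, against 63.18 TPM in replicate 1, Tef had 29.78 TPM in replicate 2, against 29.86 TPM in replicate 1, and Nfil3 had 6.75 TPM in replicate 2, against 13.56 TPM in replicate 1 (log2 ratio -1.14). What feeding or time of day had to do with any of these differences was not tested, since the labels give neither.

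**Figure D4:**
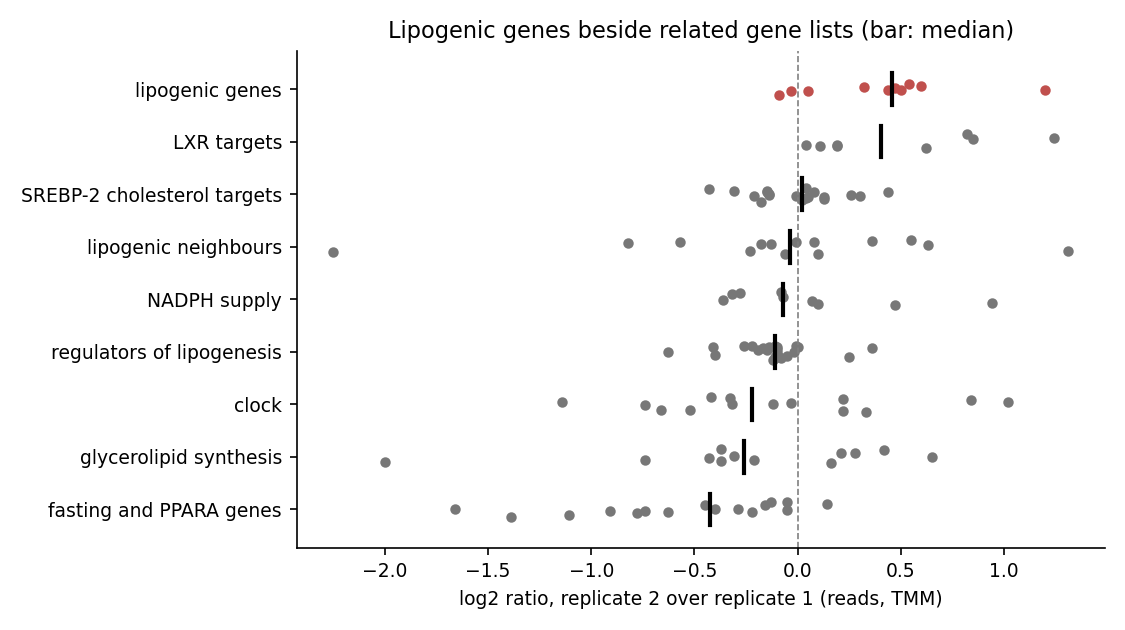
Log2 ratio of replicate 2 over replicate 1, from reads scaled by TMM, for each lipogenic gene (red) and for genes of related lists (grey), with black bars at the median of each list. The lipogenic genes have a median of 0.46, the LXR targets 0.40, and the fasting and PPARA genes -0.42. Total-read and spike-in scaling move all points right by 0.13 and 0.15 in the median of all genes.

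Of the 7 hepatocyte markers, 1 was higher in replicate 2 and 6 were lower with TMM (median log2 ratio -0.14), and 4 kept their call under all 4 scalings. Hnf4a, a defining transcription factor of hepatocytes, had 223.89 TPM in replicate 2, against 262.54 TPM in replicate 1. Markers of other cells differed too. Each of 8 Kupffer cell markers was higher in replicate 2, summing to 348 TPM in replicate 2, against 210 TPM in replicate 1 (median log2 ratio 0.67). Of 4 endothelial markers 3 were higher, with a sum of 77.4 TPM in replicate 2, against 58.8 TPM in replicate 1. Of 4 stellate cell markers 2 were higher and 1 lower, with a sum of 100 TPM in replicate 2, against 88.0 TPM in replicate 1. Their part in the differences of the lipogenic genes was not tested. Adipocytes make the same enzymes, and the 8 adipocyte markers summed to 3.73 TPM in replicate 2, against 4.00 TPM in replicate 1. Of these, Adipoq held 0 reads in replicate 2 and 3 in replicate 1, Plin1 held 0 in replicate 2 and 2 in replicate 1, Lep held 0 in replicate 2 and 1 in replicate 1, and Retn held 0 in both. Ucp1 held 0 reads in replicate 2 and 3 in replicate 1, and Cfd held 8 in replicate 2 and 30 in replicate 1. Fabp4 had 113 reads (2.2 TPM) in replicate 2 and 85 reads (2.06 TPM) in replicate 1, and Cidec had 83 reads (1.31 TPM) in replicate 2 and 57 reads (0.96 TPM) in replicate 1. Of the 8 markers, 5 held at most 3 reads in either library and 3 were detected at low levels.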

How the data were processed

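Poly-A RNA was measured in 2 liver libraries of 1 group, grouped by the labels. Each has a gene table and a transcript table, which the authors made on mm10 with GENCODE annotation M4 per the accompanying notes. Neither the quantification tool nor the aligner is named in the sources used here. In the deposited estimated counts (expected counts), a read that maps to several features is split between those. TPM, as deposited, was divided by effective length and scaled with the spike-ins in the sum. FPKM, also deposited by the authors, was used only in rescaled form, as an alternative measure of gene level. For each transcript the authors deposited a percent, the part of the TPM of its gene that it holds. A score deposited by the authors, the posterior standard deviation of each count, gave the error from shared reads. Splice junction and contig files, on mm9, were not used, and no coordinate was moved between builds.

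Names and coordinates came from GENCODE M21 on GRCm38 by stable identifier (42462 of 43346 genes matched), and promoter windows from RefSeq on GRCm38.p6. The 96 spike-ins and 26249 other entries stayed out of gene tests. Spike-ins held 2.52% of TPM in replicate 2 and 2.56% in replicate 1.

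Rounded counts were given TMM scaling with edgeR 4.0.16 under R 4.3.3. Genes with at least 20 reads over both libraries (14533) entered an exact conditional binomial test, two-sided, in scipy 1.17.1, adjusted by Benjamini-Hochberg at 0.05. It sets 1 library against the other, with no replicate error and no condition behind it. Log2 ratios are replicate 2 over replicate 1 with a prior of 0.5 reads. Intervals are 95% Clopper-Pearson intervals for counting error alone: without molecular identifiers, reads are not independent molecules. Alternatives were scaling by total reads, by spike-in totals and by DESeq2 1.42.0 size factors, other filters and a prior of 5 reads. Further ones were TPM ratios with 0.1 added, rescaled FPKM, and each library alone. TPM at the length of the longest coding model was added after seeing the data. The exact test, its adjustment and its intervals were tested on simulated counts that held counting error alone. The other steps were not tested in this way.

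The members and the related lists were chosen with earlier results of these data known. In each related list the text names the 2 genes with the highest mean TPM and, at mean TPM 1 or more, the gene with the largest log2 ratio, and says where another gene is added. Some genes that this choice selects are left out of the text and not reported here.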

Additional observations from a re-analysis of the deposited data

How the results depend on the processing

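The count of lipogenic genes called and their summed share of TPM changed by less than 1.5 times or the spread between libraries under each alternative run. The median log2 ratio moved, and the ratios of Srebf1 and Acly changed sign. The median over the 10 genes was 0.59 with total reads, 0.62 with spike-in totals, 0.61 as a TPM ratio and 0.60 with TPM at the longest coding model, beside 0.46 with TMM. The log2 ratio of Srebf1 was 0.04 with total reads, 0.07 with spike-in totals, 0.32 as a TPM ratio and 0.05 with TPM at the longest coding model, beside -0.09 with TMM. That of Acly was 0.10 with total reads, 0.13 with spike-in totals, 0.10 as a TPM ratio and 0.10 with TPM at the longest coding model, beside -0.03 with TMM. Scaling adds 1 constant to every gene, so it turns only ratios near 0. In the libraries taken singly, the summed share of TPM ranged over 0.247 to 0.368% and the share of Srebf1-207 over 15.37 to 17.22%. Acly lay at the threshold: it was uncalled with at least 20 reads, while all 10 genes were called with at least 200 reads, 8 of them higher. Intervals cover counting error alone, and no spread between animals can be estimated from 2 libraries.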
